A study of Mus musculus with 6 samples.

Results

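The AP-1 transcription factors were taken as 9 genes, Jun, Junb, Jund, Fos, Fosb, Fosl1, Fosl2, Atf3 and Batf3, chosen by gene name from the 23449 genes of the deposited count table. All 9 were found. RNA came from 6 female FVB/N mouse mammary cell lines. The tested lines were 3 named 16IC (genotype 16IC/WT), and they were set against 3 named EIC (genotype EIC/WT). Background knowledge of the study, which the labels do not state, is that 16IC carries a doxycycline-inducible HER2 splice form without exon 16 and EIC carries inducible wild-type ErbB2. All lines of both groups were in doxycycline at 10 ug/mL and in serum-containing medium with added EGF, insulin and extract of pituitary. No line without doxycycline was analysed here. The labels do not say which animal each line came from or whether a line is 1 clone, so p-values measure the spread between these 6 cultures. The hours between the last change of medium and lysis are not stated in the sources.

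AP-1 is a dimer of basic leucine zipper proteins. JUN proteins pair with each other or with FOS proteins, while FOS proteins need a JUN partner, and the dimers bind the TPA response element and related sites. ERK signalling below receptor tyrosine kinases such as HER2 induces Fos within minutes and stabilises FOS proteins, and FRA1 (the product of Fosl1) accumulates in cells with sustained RAS and ERK activity. JUNB and JUND can act as weaker activators than JUN or oppose it, depending on the partner. In mammary tumour cells FRA1 is known as a factor of invasive, mesenchymal cell states.

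Library totals were 15621563 to 16091846 counts in 16IC and 16742109 to 17468498 counts in EIC. Levels are CPM, counts per 1000000 counts of the TMM-scaled library, and SD is over the 3 lines of a group. Expression of 16IC 1 and 16IC 2 was close (Spearman correlation 0.989 across tested genes, which are not independent), whereas 16IC 3 reached 0.874 and 0.880 with them. EIC 2, whose title has NT in place of a number, reached 0.925 and 0.917 with the other EIC lines, which reached 0.979 with each other. The summed level of 16 luminal epithelial markers was 12680, 12730 and 2129 CPM in 16IC 1 to 3 and 2764 to 3859 CPM in EIC. Its members did not all follow that sum in 16IC 3: the adhesion gene Epcam had 1160, 1345 and 51.1 CPM in the 16IC lines, against 0.456, 1.08 and 3.79 CPM in the EIC lines, while the keratin gene Krt8 had 2652, 2094 and 580 CPM in the 16IC lines, against 1929, 1349 and 1788 CPM in the EIC lines. Groups did not overlap for 7 of the 13 luminal markers tested (31.4% of all tested genes), 6 higher (17.2%) and 1 lower (14.2%) in 16IC. The mesenchymal and fibroblast markers, 15 of 18 in the table, summed to 253, 344 and 4019 CPM in 16IC 1 to 3. In EIC they summed to 4649 to 9188 CPM. Groups did not overlap for 6 of the 13 tested (31.4% of all tested genes), 2 higher (17.2%) and 4 lower (14.2%) in 16IC. The leukocyte markers, 6 of 12 in the table, summed to 12.5 to 19.5 CPM in 16IC and 14.7 to 47.8 CPM in EIC. Most of this was the lysosomal gene Cd68 at 7.40 to 19.0 CPM in 16IC and 14.3 to 47.6 CPM in EIC, and Csf1r had 3.73 and 4.65 CPM in 16IC 1 and 16IC 2, while the pan-leukocyte gene Ptprc stayed at or below 0.306 CPM in every line. The endothelial markers, 5 of 6 in the table, summed to 0.181 to 1.36 CPM in 16IC and 0.602 to 4.16 CPM in EIC, with Kdr at 3.76 CPM in EIC 1 and Cdh5 at or below 0.0622 CPM in every line. The adipocyte markers, 2 of 6 in the table, summed to 0.857 to 2.66 CPM in 16IC and 24.1, 4.57 and 44.2 CPM in EIC 1 to 3, with Fabp4 at 22.1 and 42.1 CPM in EIC 1 and EIC 3. In cultures, fewer cells of a type and less RNA per cell cannot be told apart. The part of these marker differences in the AP-1 values was not tested.

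In every 16IC line Jun and Fosl1 lay below every EIC line, and Junb, Jund and Fos lay above every EIC line. Of these 5 genes, Jun alone passed edgeR's quasi-likelihood test, with a Benjamini-Hochberg adjusted p under 0.05 over all 13698 genes tested. Batf3 was too low to be tested, and the other 8 members had at least 23 counts in each of the 6 libraries. Of the 8, 1 was called, lower in 16IC, where 2.45% of all tested genes were called and 1.20% were called lower. Limma-voom also called 1 (background 2.10%), DESeq2 called 4 (15.5%), and 3 of the 9 members have an adjusted p under 0.05 in the authors' deposited table (8.63%). By edgeR 6 of the 8 had an unadjusted p under 0.05, against a background of 22.7%. Groups did not overlap for 5 of the 8 (31.4% of all tested genes), 3 with 16IC higher (17.2%) and 2 with 16IC lower (14.2%). Line by line, the members outside the range of the EIC lines numbered 6 of 8 for 16IC 1 (63.4% of all tested genes), 7 for 16IC 2 (62.9%) and 6 for 16IC 3 (69.6%), shares not far above the background. Gene positions are those of the deposited table (build mm10). Values in the sentences below are given for lines 1, 2 and 3 of a group in that order. The median size of the log2 fold change, without its sign, was 1.04 over the 8 members and 0.43 over all tested genes.

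**Figure D1:**
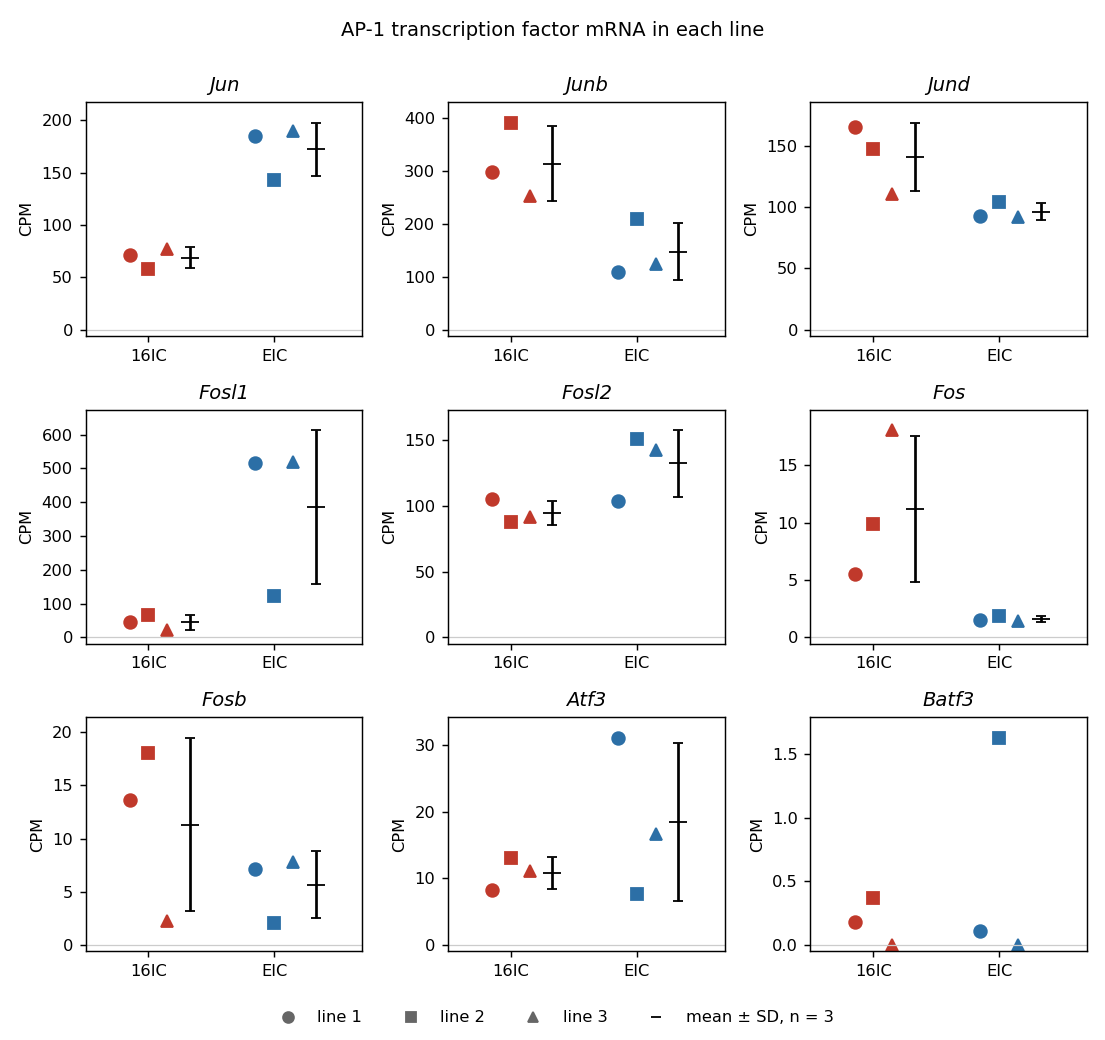
Level of each AP-1 gene in CPM (vertical axis, linear) in the 3 16IC lines (red, left) and the 3 EIC lines (blue, right); symbols mark lines 1 to 3, and black bars give the mean ± SD, not drawn for Batf3. Jun and Fosl1 are below all EIC lines in each 16IC line, Junb, Jund and Fos are above them, and the groups overlap for Fosl2, Fosb, Atf3 and Batf3.

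Jun (ENSMUSG00000052684, chromosome 4, 95049034 to 95052222, minus strand) encodes the founding JUN subunit, the strongest activator of the family. It had 71.2, 57.5 and 77.0 CPM in the 16IC lines, against 184, 143 and 189 CPM in the EIC lines. The highest 16IC line was thus well below the lowest EIC line, EIC 2. Its mean was 68.6 ± 10.0 CPM over the 16IC lines and 172 ± 25.5 CPM over the EIC lines (SD, n = 3 each). Jun fell in 16IC, with a log2 fold change of -1.33 (SE 0.20, 95% interval -1.81 to -0.85, edgeR adjusted p = 0.0390). The direction held whichever line was left out, and the call was lost without 16IC 1, 16IC 2, EIC 1 or EIC 3 (edgeR adjusted p = 0.169, 0.171, 0.1503 and 0.157). Without 16IC 3 or EIC 2 Jun was called (edgeR adjusted p = 0.0173 and 0.0451). In the authors' deposited table the log2 fold change of Jun is -1.36, with an adjusted p of 4.22e-05. The antisense gene Junos shares 689 bases with Jun, and whether the counting used strand is not given in the sources. Junos had 5.0, 8.38 and 11.6 CPM in the 16IC lines, against 13.5, 7.34 and 20.1 CPM in the EIC lines, groups that overlapped and that were small beside Jun.

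Junb (ENSMUSG00000052837, chromosome 8, 84974484 to 84978718, minus strand) encodes a JUN subunit that often restrains JUN-driven transcription. It had 298, 391 and 252 CPM in the 16IC lines, against 109, 209 and 124 CPM in the EIC lines. Every 16IC line was above every EIC line, and EIC 2 came nearest to 16IC. Its mean was 313 ± 70.8 CPM over the 16IC lines and 147 ± 53.8 CPM over the EIC lines (SD, n = 3 each). The log2 fold change was 1.09 (SE 0.32, 95% interval 0.32 to 1.85), which edgeR did not call (adjusted p = 0.117). DESeq2 called it (adjusted p = 0.0210), and it is at 0.0513 in the authors' deposited table. Prdx2, a peroxiredoxin gene on the opposite strand, shares 351 bases with Junb. It had 207, 195 and 170.0 CPM in the 16IC lines, against 91.7, 221 and 115 CPM in the EIC lines, so that Prdx2 too was higher in 16IC than in EIC 1 and EIC 3 but not than in EIC 2. What part of the shared reads was counted for Junb was not tested.

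Jund (ENSMUSG00000071076, chromosome 8, 70698949 to 70700616, plus strand), the JUN subunit that most cells express steadily, had 165, 147 and 111 CPM in the 16IC lines, against 93.0, 104 and 91.6 CPM in the EIC lines. The groups did not overlap, and 16IC 3 lay close to EIC 2. The log2 fold change was 0.55 (SE 0.20, 95% interval 0.08 to 1.03, edgeR adjusted p = 0.167). Without 16IC 3 edgeR called Jund (log2 fold change 0.70, adjusted p = 0.0383).

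Fosl1 (ENSMUSG00000024912, chromosome 19, 5447703 to 5455945, plus strand) encodes FRA1, a FOS subunit without the transactivation domain of FOS. It had the greatest difference of the tested members, with 46.3, 66.2 and 22.3 CPM in the 16IC lines, against 514, 124 and 519 CPM in the EIC lines. Each 16IC line was below EIC 2, which itself was far below EIC 1 and EIC 3. Its mean was 44.9 ± 21.98 CPM over the 16IC lines and 386 ± 227 CPM over the EIC lines (SD, n = 3 each). The log2 fold change was -3.10 (SE 0.68, 95% interval -4.74 to -1.46), which edgeR did not call with all lines (adjusted p = 0.0699). Without EIC 2 it was -3.53 and was called (edgeR adjusted p = 0.0461), and without any of the other lines it was not (edgeR adjusted p = 0.0601 to 0.225). DESeq2 called it with all lines (adjusted p = 4.21e-05), and the authors' deposited table has -3.13 with an adjusted p of 7.24e-05. The line 16IC 3 had the lowest Fosl1 of the 6, and was also the 16IC line with a high summed level of mesenchymal markers. That sum included the intermediate filament gene Vim at 2099 CPM and Fn1 at 1511 CPM. Not all markers of the list followed it. In 16IC 3 Sparc had 31.1 CPM, against 282 to 722 CPM in the EIC lines, and Twist1 had 19.7 CPM, against 79.1 to 113 CPM.

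Fosl2 (ENSMUSG00000029135, chromosome 5, 32135801 to 32157842, plus strand), which encodes the related subunit FRA2, had 105, 87.4 and 91.3 CPM in the 16IC lines, against 103, 150 and 143 CPM in the EIC lines. The groups overlapped through 16IC 1 and EIC 1. Its log2 fold change was -0.48 (SE 0.20, 95% interval -0.96 to -9.4e-04, edgeR adjusted p = 0.219).

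Fos (ENSMUSG00000021250, chromosome 12, 85473890 to 85477273, plus strand), the classical immediate early gene, was low in all cultures. It had 5.54, 9.85 and 18.0 CPM in the 16IC lines, against 1.54, 1.86 and 1.43 CPM in the EIC lines. These are 92, 161 and 278 counts in 16IC and 27, 31 and 23 counts in EIC. The EIC lines were close together, while the 16IC lines were spread, with 16IC 3 highest. The log2 fold change was 2.78 (SE 0.51, 95% interval 1.54 to 4.03), and edgeR's adjusted p of 0.0526 narrowly missed the threshold. Without 16IC 3 Fos was called, at a log2 fold change of 2.25 (edgeR adjusted p = 0.0263). With the low-count filter set to 1 CPM in 3 libraries it was also called (edgeR adjusted p = 0.0497), as it was with DESeq2 (adjusted p = 2.63e-05). The authors' deposited table has 2.76 with an adjusted p of 2.74e-05.

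Fosb (ENSMUSG00000003545, chromosome 7, 19302696 to 19310051, minus strand), another immediate early FOS gene, followed the lines that stand apart more than the groups. It had 13.6, 18.1 and 2.27 CPM in the 16IC lines, against 7.19, 2.05 and 7.77 CPM in the EIC lines. It was lowest in 16IC 3 within 16IC and lowest in EIC 2 within EIC. With all lines edgeR did not call it (log2 fold change 0.996, SE 0.83, 95% interval -1.02 to 3.01, adjusted p = 0.532). Fos and Fosb, which are usually induced together, thus differed in 16IC 3, which had the highest Fos and, within its group, the lowest Fosb.

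Atf3 (ENSMUSG00000026628, chromosome 1, 191170296 to 191218039, minus strand), a stress-induced partner of JUN proteins, had 8.31, 13.0 and 11.2 CPM in the 16IC lines, against 31.1, 7.64 and 16.7 CPM in the EIC lines. All 16IC values lay within the EIC range (log2 fold change -0.77, SE 0.52, edgeR adjusted p = 0.437). Batf3, which pairs with JUN proteins in dendritic cells, had 3, 6 and 0 counts in 16IC 1 to 3 and 2, 27 and 0 counts in EIC 1 to 3. Only the count in EIC 2, 1.62 CPM, stood clearly above the others, and no fold is given.

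**Figure D2:**
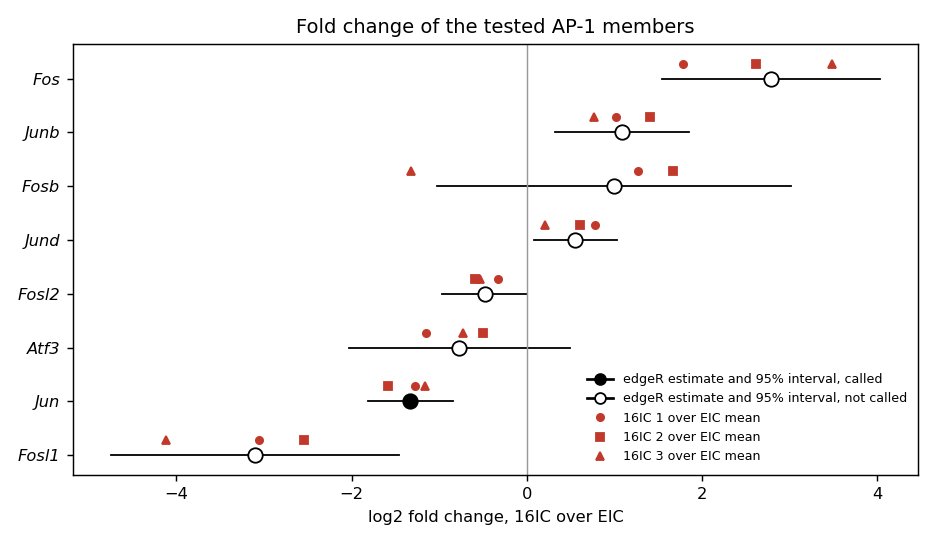
Log2 fold change, 16IC over EIC (horizontal axis), for the 8 tested members: black circles are edgeR estimates with 95% intervals, filled where called, and red symbols are each 16IC line over the EIC mean. Jun is the 1 filled circle, at -1.33, and 16IC 3 gives the lowest value for Fosl1 and Fosb and the highest for Fos.

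To compare genes with each other, CPM was divided by the gene length in kilobases from the deposited table. On this scale Fosl1 led the EIC mean levels at 226 ± 133 CPM per kilobase, followed by Junb at 64.0 ± 23.4, Jund at 57.7 ± 4.02 and Jun at 54.0 ± 8.01 (SD, n = 3). The 3 JUN genes differed by less than their spread, and in EIC 2 Junb (90.8 CPM per kilobase) was above Fosl1 (72.4). In 16IC Junb led at 136 ± 30.8 CPM per kilobase, followed by Jund at 84.5 ± 16.7, Fosl1 at 26.3 ± 12.9 and Jun at 21.5 ± 3.14 (SD, n = 3). Fosl1 and Jun lay within each other's spread there, and in 16IC 3 Jun was above Fosl1. Fosl2 came next in both groups, at 9.76 ± 0.95 in 16IC and 13.6 ± 2.60 in EIC. By group mean Atf3 followed below it, then Fos and Fosb in 16IC and Fosb and Fos in EIC, with Batf3 last. By line there were exceptions, since Atf3 (14.4 CPM per kilobase) was above Fosl2 (10.7) in EIC 1, and Batf3 (1.02) was above Fos (0.793) and Fosb (0.328) in EIC 2. Atf3 and Fos were within each other's spread in 16IC, at 5.03 ± 1.103 and 4.74 ± 2.70 CPM per kilobase.

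The shares within each family, counted as CPM per kilobase, describe the same values and are no separate test. Fosl1 made up 63.8, 70.7 and 42.8% of the FOS family level in 16IC 1 to 3 and 96.0, 81.3 and 94.8% in EIC 1 to 3. Fos made up 5.55, 7.63 and 25.1% in 16IC and 0.209, 0.890 and 0.190% in EIC. Jun made up 8.89, 6.54 and 12.1% of the JUN family level in 16IC and 35.9, 22.6 and 35.3% in EIC. Junb made up 51.6, 61.6 and 54.7% in 16IC and 29.5, 45.9 and 32.1% in EIC. The share of Jund overlapped between the groups, at 31.9 to 39.5% in 16IC and 31.5 to 34.6% in EIC. The summed JUN family level was 5.91, 5.03 and 6.55 times the summed FOS family level in 16IC, against 0.513, 2.22 and 0.524 times in EIC. FOS family mRNA thus exceeded JUN family mRNA in EIC 1 and EIC 3 alone. In all of these shares except that of Jund, EIC 2 was the EIC line nearest to 16IC.

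**Figure D3:**
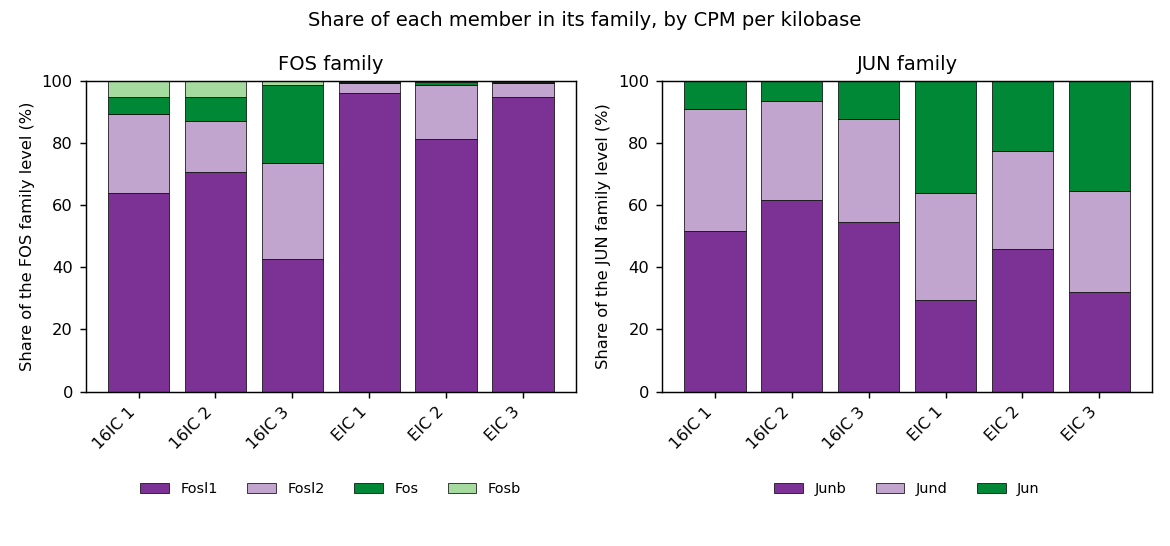
Share in percent of each gene in the summed CPM per kilobase of its family, FOS family on the left and JUN family on the right, with the 3 16IC lines left of the 3 EIC lines. Fosl1 holds 42.8 to 70.7% in 16IC and 81.3 to 96.0% in EIC, and Jun holds 6.54 to 12.1% in 16IC and 22.6 to 35.9% in EIC.

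The promoters of Jun and Fos are shown because these genes lay on opposite sides in every line and are known to answer to AP-1 and to CREB or ATF factors. The windows run from 250 bases before to 50 after the RefSeq start (GRCm38.p6, gene strand, 5′ to 3′), and 8 of the 9 members had one. Fosl1 had no window, so its promoter was not searched. Capitals in Jun mark TTACCTCA and TGACATCA, variants of the AP-1 site described in this promoter, and in Fos TGACGT, the first bases of the cAMP response element. The Jun window is chr4:95052173-95052472 on the minus strand and the Fos window is chr12:85473640-85473939 on the plus strand.
Jun: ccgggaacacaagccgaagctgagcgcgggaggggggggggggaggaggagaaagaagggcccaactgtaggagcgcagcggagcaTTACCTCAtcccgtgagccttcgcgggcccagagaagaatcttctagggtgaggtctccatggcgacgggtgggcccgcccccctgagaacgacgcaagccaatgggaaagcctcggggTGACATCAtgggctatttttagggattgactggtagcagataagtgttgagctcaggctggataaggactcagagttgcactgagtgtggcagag
Fos: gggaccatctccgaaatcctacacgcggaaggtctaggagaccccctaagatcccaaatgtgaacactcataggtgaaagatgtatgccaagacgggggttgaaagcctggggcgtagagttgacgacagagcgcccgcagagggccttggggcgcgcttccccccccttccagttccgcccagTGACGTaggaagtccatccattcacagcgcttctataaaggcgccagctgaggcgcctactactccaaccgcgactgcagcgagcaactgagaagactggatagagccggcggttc
In the Jun window TGACATCA begins at -45 and TTACCTCA at -164 from the start, and in the Fos window TGACGT begins at -66. Both strands were searched in all 8 windows. TGACATCA and TTACCTCA were in the Jun window alone, and TGACGT was also in the Atf3 window, on the other strand. Neither the TPA response element TGANTCA nor the full cAMP response element TGACGTCA, which contains TGACGT, nor the CArG box was in any of the 8. Sites outside the windows, such as further upstream, were not searched. The Jund window ends at 70697788, before the deposited Jund start of 70698949. The Atf3 window (191183284 to 191183583) lies inside the deposited Atf3 span of 191170296 to 191218039. An absence here thus covers these bases only. Over 32817 promoter windows of the same 300 bases, TGACATCA was in 3.62%, TTACCTCA in 0.89%, TGACGT in 7.51%, TGANTCA in 7.81%, TGACGTCA in 1.79% and the CArG box in 1.63%.

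Among other basic leucine zipper genes of the wider family, 13 of 16 were tested and edgeR called 1, against 2.45% of all tested genes. This was Mafa, a large MAF factor known from beta cells. Mafa was lower in 16IC, with 0.723, 0.551 and 0.649 CPM in the 16IC lines, against 2.57, 4.33 and 3.48 CPM in the EIC lines (log2 fold change -2.42, SE 0.40, edgeR adjusted p = 0.0452). It was low in every line, and limma-voom called 0 genes of this list (3 at an unadjusted p under 0.05). Jdp2, a repressor that pairs with JUN, had 8.37, 18.7 and 13.5 CPM in the 16IC lines, against 26.1, 19.8 and 21.7 CPM in the EIC lines, groups that did not overlap (edgeR adjusted p = 0.264). Nfe2l2, the oxidative stress factor NRF2, had 202, 228 and 181 CPM in the 16IC lines, against 269, 248 and 435 CPM in the EIC lines (edgeR adjusted p = 0.222). The list's median log2 fold change was -0.23, against -0.0044 over all tested genes.

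Of 30 tested genes of kinases upstream of AP-1 and their scaffolds, edgeR and limma-voom called 0. With an unadjusted p under 0.05 were 5 by edgeR (22.7% of all tested genes) and 6 by limma-voom. DESeq2 called 3 of the 30, all lower in 16IC, against 15.5% of the genes it adjusted. The list's median log2 fold change was -0.11. Groups did not overlap for 13 of 30 (31.4% of all tested genes), 5 higher (17.2%) and 8 lower (14.2%) in 16IC. Map2k1, which encodes the ERK kinase MEK1, had 126, 126 and 133 CPM in the 16IC lines, against 181, 174 and 194 CPM in the EIC lines (edgeR adjusted p = 0.110). Rps6ka3, which encodes the ERK-activated kinase RSK2, had 107, 119 and 92.3 CPM in the 16IC lines, against 188, 168 and 206 CPM in the EIC lines (edgeR adjusted p = 0.0666). Map2k1 and Rps6ka3 were lower in every 16IC line than in every EIC line, as was Mapk14 (edgeR adjusted p = 0.108). The scaffold gene Mapk8ip3 was higher in every 16IC line than in every EIC line (edgeR adjusted p = 0.204). These are mRNA levels and say nothing of kinase activity.

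Of 15 tested regulators of Fos and Jun promoters (SRF and its coactivators, ETS factors, Creb1 and Mef2 genes), edgeR and limma-voom called 0. Their background shares are 2.45% and 2.10% of all tested genes. With an unadjusted p under 0.05 were 1 by edgeR (22.7% of all tested genes) and 2 by limma-voom. DESeq2 called 1, against 15.5% of the genes it adjusted. Mkl2, an SRF coactivator, had 77.3, 77.8 and 52.1 CPM in the 16IC lines, against 36.6, 35.8 and 32.8 CPM in the EIC lines (edgeR adjusted p = 0.0695). The groups did not overlap. Of 12 tested genes of AP-1 degradation and repression, edgeR and limma-voom called 0, against the same background shares. With an unadjusted p under 0.05 were 4 by edgeR (22.7% of all tested genes) and 3 by limma-voom. DESeq2 called 1, against 15.5% of the genes it adjusted. The list had 6 positive and 6 negative log2 fold changes, and the 4 genes with the smallest p lay in both directions. Fbxw7, the ubiquitin ligase subunit that marks JUN for degradation, had 36.6, 34.8 and 25.7 CPM in the 16IC lines, against 25.0, 21.1 and 20.8 CPM in the EIC lines (edgeR adjusted p = 0.216). Hdac3, a histone deacetylase of corepressor complexes, had 125, 119 and 204 CPM in the 16IC lines, against 78.8, 91.5 and 82.1 CPM in the EIC lines (edgeR adjusted p = 0.125). Lower in 16IC was Trib2, a pseudokinase gene, with 17.3, 30.0 and 54.6 CPM in the 16IC lines, against 60.1, 72.2 and 79.6 CPM in the EIC lines, groups that did not overlap (edgeR adjusted p = 0.205). Fbxl21, an F-box gene, was low, with 1.51, 1.96 and 5.71 CPM in the 16IC lines, against 10.04, 4.99 and 19.6 CPM in the EIC lines, groups that overlapped (edgeR adjusted p = 0.1895).

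Immediate early genes outside AP-1 lay in both directions, as the members did. Of 28 tested, edgeR called 1 higher (1.25% of all tested genes) and 1 lower (1.20%), 9 had a positive and 19 a negative log2 fold change, and the median was -0.80. Groups did not overlap for 17 of 28 (31.4% of all tested genes), 7 higher (17.2%) and 10 lower (14.2%) in 16IC. Gadd45b, a stress gene upstream of JNK and p38 signalling, rose in 16IC. It had 68.7, 52.8 and 44.6 CPM in the 16IC lines, against 17.3, 13.0 and 9.57 CPM in the EIC lines (log2 fold change 2.06, SE 0.30, edgeR adjusted p = 0.0390). Klf4, a factor of epithelial differentiation and pluripotency, fell in 16IC. It had 11.7, 18.1 and 5.19 CPM in the 16IC lines, against 126, 86.0 and 114 CPM in the EIC lines (log2 fold change -3.21, SE 0.48, edgeR adjusted p = 0.0390). Egr1, which shares SRF control with Fos, had 107, 118 and 92.6 CPM in the 16IC lines, against 48.8, 60.7 and 41.9 CPM in the EIC lines, with groups that did not overlap (edgeR adjusted p = 0.0542). Ier5 lay the other way, with 26.8, 29.0 and 58.5 CPM in the 16IC lines, against 114, 116 and 141 CPM in the EIC lines (edgeR adjusted p = 0.0612).

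Genes reported as AP-1 targets in various cells were more often lower than higher in 16IC. Of 34 tested, 24 had a negative and 10 a positive log2 fold change (median -0.74), while 6891 of all tested genes had a negative and 6807 a positive one. Groups did not overlap for 12 of the 34, close to the background share of 31.4%. By direction, 1 was higher (17.2% of all tested genes) and 11 were lower (14.2%) in 16IC. EdgeR called 1 of the 34, against 2.45% of all tested genes. This was Itga5, an integrin subunit that binds fibronectin, which fell in 16IC. It had 22.4, 35.7 and 30.6 CPM in the 16IC lines, against 220, 126 and 381 CPM in the EIC lines (log2 fold change -3.03, SE 0.45, edgeR adjusted p = 0.0390). Spp1, which encodes osteopontin, had 1093, 1720 and 4089 CPM in the 16IC lines, against 13128, 9304 and 15792 CPM in the EIC lines (edgeR adjusted p = 0.0849). The cytokine gene Il11 was low throughout, at 0.482, 0.367 and 0.195 CPM in the 16IC lines, against 1.83, 1.02 and 2.05 CPM in the EIC lines (edgeR adjusted p = 0.0844). Of these genes, Vim and Dcn are also in the mesenchymal marker list, and Krt18 is in the luminal list. The summed mesenchymal level was lower in 16IC 1 and 16IC 2 than in any other line.

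**Figure D4:**
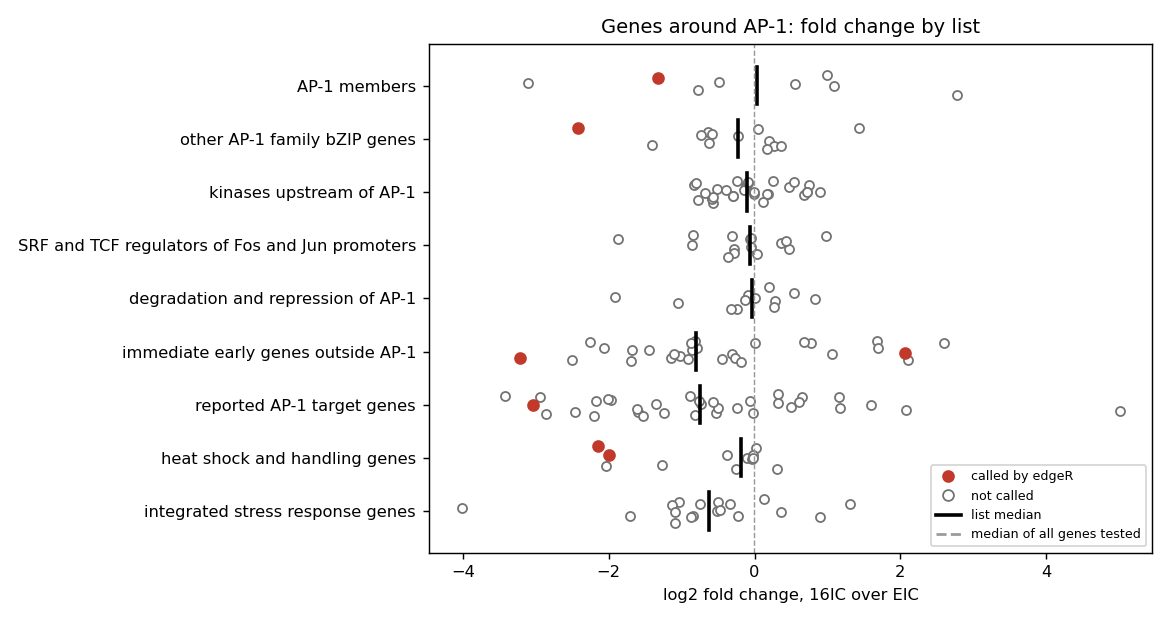
Log2 fold change, 16IC over EIC (horizontal axis), of the tested genes in the AP-1 list and each related list: filled red circles were called by edgeR, open circles were not, black bars are list medians and the dashed line is the median of all tested genes. The medians of immediate early genes (-0.80) and of reported targets (-0.74) lie left of the line at -0.0044, while that of the AP-1 members is near it (0.03).

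The genes most alike to the members over the 6 lines were taken by Pearson r of log2 CPM among 10307 candidates with at least 5 CPM on average. For Jun they were Abhd6 (r = 0.998), Copg1 (0.995) and Ifit2 (0.995). For Fosl1 they were Rint1 (0.996), Hccs (0.993) and Tmed5 (0.992). For Fos they were Tbc1d24 (0.999), Rnf215 (0.998) and Echdc2 (0.994), and for Junb Madd (0.991), Trim45 (0.990) and Irs1 (0.990). The 6 lines share the split into 2 groups, so r near 1 describes that split and the order within it, and is no test.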

How the data were processed

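The deposited table holds the authors' whole-number read counts for each gene in each library. Beside them stand a normalised signal (each count divided by 1 size factor per library) with its group means, FPKM values and the authors' log2 fold change, p-value and adjusted p-value. Per the submitters' processing notes, tools were Trimmomatic, STAR, HTSeq, edgeR and limma, with builds GRCm38 and mm10. Not given in the sources used here are their roles, versions and settings, the strandedness and the tool behind the authors' comparison.

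From the counts, genes were filtered with filterByExpr by group (minimum count 10), scaled with TMM and tested with edgeR 4.0.16's quasi-likelihood test in R 4.3.3, without a block. SE is the size of the log2 fold change divided by the root of F. Alternatives used limma 3.58.1 (voom), DESeq2 1.42.0, other scalings and filters, and each line left out. Log2 CPM for likeness used an offset of 0.5.

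The members and lists were chosen with earlier results of these data known. All 9 members are named; from other lists, up to 4 genes with the smallest p, markers excepted, and overlapping genes, chosen after their values were seen. Replicate numbers follow sample order and pair nothing.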

Additional observations from a re-analysis of the deposited data

How the results depend on the processing

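No fold change of the 8 tested members turned its sign under any of 15 alternatives. EdgeR called 335 genes and 1 member, Jun, with all lines. With no filter on low counts it called 223 genes, still with Jun as the 1 member. DESeq2 called 2098 genes (15.5% of those it adjusted) and 4 members, Fos, Fosl1, Jun and Junb. A filter of 1 CPM in 3 libraries gave 2 members, Fos and Jun. An adjusted p under 0.01 gave 0 genes and 0 members, and one under 0.1 gave 1184 genes and 3 members, Fos, Fosl1 and Jun. Leaving out 1 line gave between 0 and 1913 genes and between 0 and 3 members. The 1913 genes (13.4% of those tested) and 3 members, Fos, Jun and Jund, came without 16IC 3; without EIC 2 the members were Fosl1 and Jun. Without 16IC 1, 16IC 2, EIC 1 or EIC 3 no member was called, with 5 genes in all without 16IC 1 and 0 without the others (2251 to 2627 at an unadjusted p under 0.05). Averaging 16IC 1 and 16IC 2 to 1 sample gave 0 genes and 0 members, with 2257 genes at an unadjusted p under 0.05. Leaving out both 16IC 3 and EIC 2, chosen after seeing the data, gave 4092 genes and 6 members, all but Fosl2 and Atf3 of those tested. The calls of Mafa, Gadd45b, Klf4, Itga5, Hspa1a and Hspa1b were lost together without 16IC 1, 16IC 2, EIC 1 or EIC 3 (edgeR adjusted p = 0.134 to 0.203), and 3 of these 6 were lost without EIC 2. The cause of these losses was not tested. No paired analysis was possible because the labels give no pairing of lines, and the replicate numbers only follow sample order. Depth limits Batf3, for which 3 counts correspond to 0.171 to 0.195 CPM, a limit that covers counting error only.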

Other observations

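Of 18 tested genes of the integrated stress response around Atf3 and Atf4, 14 had a negative and 4 a positive log2 fold change (median -0.63), while 6891 of all tested genes had a negative and 6807 a positive one (median -0.0044). EdgeR and limma-voom called 0 of the 18, with 6 each at an unadjusted p under 0.05 (22.7% of all tested genes by edgeR). DESeq2 called 3, all lower in 16IC, against 15.5% of the genes it adjusted. Slc7a11, the cystine transporter gene, had 5.30, 17.6 and 6.81 CPM in the 16IC lines, against 252, 37.8 and 193 CPM in the EIC lines (edgeR adjusted p = 0.0666). Like Fosl1, it was lower in EIC 2 than in the other EIC lines and lower still in 16IC. Cebpb, a basic leucine zipper factor of another family, had 98.9, 116 and 199.9 CPM in the 16IC lines, against 254, 246 and 350 CPM in the EIC lines (edgeR adjusted p = 0.131). Groups did not overlap for 5 of the 18 (31.4% of all tested genes), 1 higher (17.2%) and 4 lower (14.2%) in 16IC. The higher one was Eif2ak4, with 47.3, 54.5 and 28.7 CPM in the 16IC lines, against 27.7, 17.4 and 25.0 CPM in the EIC lines (edgeR adjusted p = 0.164).

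Among 12 heat shock genes edgeR called 2, Hspa1b and Hspa1a, both lower in 16IC, where 2.45% of all tested genes were called and 1.20% were called lower. Hspa1b had 46.6, 57.7 and 66.1 CPM in the 16IC lines, against 232, 178 and 273 CPM in the EIC lines (log2 fold change -2.001, SE 0.24, edgeR adjusted p = 0.0360). Hspa1a had 8.49, 10.3 and 12.5 CPM in the 16IC lines, against 42.9, 32.4 and 63.5 CPM in the EIC lines (log2 fold change -2.15, SE 0.32, edgeR adjusted p = 0.0390). These genes are near-identical copies, so the split of reads between them is uncertain. Of the 12, 10 had a negative and 2 a positive log2 fold change (median -0.18). Groups did not overlap for 4 of the 12 (31.4% of all tested genes), 0 higher (17.2%) and 4 lower (14.2%) in 16IC. DESeq2 called 4, all lower in 16IC, against 15.5% of the genes it adjusted. Hsp90aa1 lay slightly the other way (0.30, edgeR adjusted p = 0.714), chosen after its value was seen. The part of handling of the cultures in the AP-1 values was not tested.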
